A study of Mus musculus with 12 samples.

Results

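The cells described here are those of MC38 tumors grown in CC001 F1 hosts, taken after a single dose of anti-PD-1 antibody (aPD1) or of an isotype control antibody. They were chosen from the deposited annotation of each cell by its host strain, CC001, and number 15532 of the 93126 cells of the series, from 8 of 48 tumors. The isotype tumors gave 6565 of these cells and the aPD1 tumors 8967. Each arm held 4 tumors, and each of 4 libraries (pools 1, 2, 4 and 12) held 1 tumor of each arm, so that isotype and aPD1 could be compared within a pool.

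The series profiled single cells of one mouse colon carcinoma line, MC38, in hosts of different genotype, with the 10x Genomics 5′ assay, in which unique molecular identifiers (UMIs) count RNA molecules. Every host of these 8 tumors was a female F1 of C57BL/6J and the recombinant inbred strain CC001/UncJ, aged 8 to 12 weeks, so that the 2 arms shared strain, sex, tumor line and time. Each received MC38 cells under the skin, a single intraperitoneal dose of 200 µg of the isotype antibody 2A3 or of the PD-1 antibody 29F.1A12 once the tumor measured 75 to 110 mm3, and was sampled 48 hours later. Viable cells were recombined after sorting as 90% CD45+ and 10% CD45- cells, so the share of immune among all cells was set by the sort. The 8 tumors came from 8 animals, and p-values measure the spread between these tumors. All isotype tumors carried the hashtag antibody C0301 and all aPD1 tumors C0302, so treatment and hashtag cannot be told apart. Each library also held tumors of another strain, CC079 F1 in pools 1 and 2, CC080 F1 in pool 4 and CC002 F1 in pool 12. Tumors of CC002, CC075, CC036, CC079 and CC080 F1 hosts enter the comparison between strains, and those of C57BL/6J and CC007 F1 hosts enter the levels of Slc15a2 and what is computed over all tumors. The hosts model a single F1 hybrid genotype bearing an implanted line, at a single early time point.

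PD-1 is an inhibitory receptor of activated T cells, and its ligand PD-L1, encoded by Cd274, is carried by macrophages, dendritic cells and tumor cells. Antibodies that block PD-1 release T cells to secrete interferon-γ (IFN-γ), which signals through JAK kinases to the nucleus. In macrophages it induces the transcription factor IRF1, the CXCR3 ligands Cxcl9 and Cxcl10, GTPases of the GBP and IRG families, the antigen presentation machinery, PD-L1, and the feedback inhibitor SOCS1.

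The markers of each cell type placed 11996 of the 15532 cells in 10 monocyte/macrophage clusters and 1563 in 9 T/NK clusters, with 679 cDC2, 187 migratory dendritic cells, 175 granulocytic cells, 143 cDC1, 92 plasmacytoid dendritic cells, 55 fibroblasts and 642 cells of 2 clusters left without a name. Tumors held 1128 to 2683 cells and 6539415 to 17713491 UMIs, with a median of 2920 to 4768 UMIs per cell. The libraries shared 107 cell barcodes, carried by 215 cells. The isotype tumor of pool 12 stood apart, with granulocytic markers summing to 1936 CPM over all its cells and erythroid markers to 4030 CPM in its T/NK cells, against at most 14.7 CPM in the T/NK cells of the other 7 tumors. CPM, or counts per 1000000, are UMI counts scaled to that total within each tumor and set of cells, and values by tumor are given below in the order of pools 1, 2, 4 and 12.

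The first question was whether aPD1 altered the cellular makeup of the tumors within 48 hours. T/NK cells made up 14.4, 7.25, 5.63 and 11.7 percent of the cells of the isotype tumors and 7.57, 14.2, 15.3 and 6.57 percent of those of the aPD1 tumors. The share was higher with aPD1 in pools 2 and 4 and lower in pools 1 and 12, and the difference between the means of 9.77 ± 4.05 and 10.9 ± 4.49 percent (SD, n = 4) did not pass an exact permutation test over the 70 splits of the 8 tumors (two-sided p = 0.6). This test, used for every share and score within the strain, ignores the pools. Exact sign flips of the 4 differences within pools gave p = 0.75. Macrophages made up 77.9 ± 5.10 percent of isotype and 76.5 ± 3.30 percent of aPD1 tumors (SD, n = 4, exact permutation p = 0.657). Cytotoxic T lymphocytes (CTL, clusters 3 and 13 as named by the study) were at 7.45, 2.84, 2.25 and 6.05 percent with isotype and 2.35, 6.14, 3.04 and 1.35 percent with aPD1, higher with aPD1 in pools 2 and 4 and lower in pools 1 and 12 (exact permutation p = 0.429, n = 4 per arm).

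Within the macrophages, the inflammatory cluster 2 held a larger share of the cells with aPD1 in every pool, and clusters 26 and 9 a smaller one. Cluster 2, macrophages led by Cxcl2, Il1b, Osm and Ptgs2 (neutrophil-attracting and inflammatory mediators), held 12.1, 14.4, 12.9 and 10.4 percent of the cells in the isotype tumors and 14.9, 32.3, 20.1 and 28.1 percent in the aPD1 tumors. Every aPD1 tumor exceeded every isotype tumor, and the means were 12.5 ± 1.64 and 23.8 ± 7.82 percent (SD, n = 4), a difference of 11.4 percentage points. This was 1 of the 27 clusters, or 3.7%, whose arms did not overlap and also 1 of 27 at an unadjusted p under 0.05. Its exact permutation p of 0.0286 (n = 4 per arm) is the smallest that 4 against 4 tumors can give, so a lone share at that value cannot pass an adjustment over 27 clusters (adjusted p = 0.386). Sign flips within the 4 pools, which keep the pairing, cannot give a p under 0.125. The cells of cluster 26, led by Fcrls, Ms4a7, C1qc and C1qa (genes of mature, complement-producing macrophages), held 32.0, 23.9, 36.9 and 32.2 percent with isotype and 28.8, 16.6, 16.6 and 9.64 percent with aPD1. The share was lower in all 4 pools, with means of 31.3 ± 5.39 and 17.9 ± 7.97 percent (SD, n = 4) that did not pass the test (exact permutation p = 0.0571).

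Cluster 9, resident-like macrophages with the receptors Cd163, Lyve1 and Folr2, was small and held 6.65, 0.665, 1.07 and 2.56 percent with isotype and 0.224, 0.503, 0.434 and 0.720 percent with aPD1, lower in every pool and with most of the difference in the isotype tumors of pools 1 and 12 (exact permutation p = 0.0571, n = 4 per arm). Cluster 5, Ccr2-expressing macrophages led by AA467197, Clec5a, C3 and Cfb, held 7.36, 16.1, 11.1 and 5.95 percent with isotype and 10.5, 15.8, 12.9 and 19.1 percent with aPD1, higher in 3 of 4 pools (exact permutation p = 0.229). Cluster 25, which mixed immunoglobulin and keratin genes and was left unnamed, held 0, 0.121, 0.161 and 0 percent with isotype and 0.186, 0.201, 4.19 and 0.135 percent with aPD1, and 1 tumor, of pool 4, carried most of the difference. In a model of the cell counts with the pool as a block (edgeR), cluster 25 rose (log2 fold change 3.41, adjusted p = 0.0188) and cluster 9 fell (log2 fold change -2.04, adjusted p = 0.0405), 2 of 27 clusters, and cluster 2 did not pass (log2 fold change 0.88, adjusted p = 0.465). In the permutation test 0 of 27 passed the adjustment. The plot of cell shares by tumor shows these values.

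**Figure D1:**
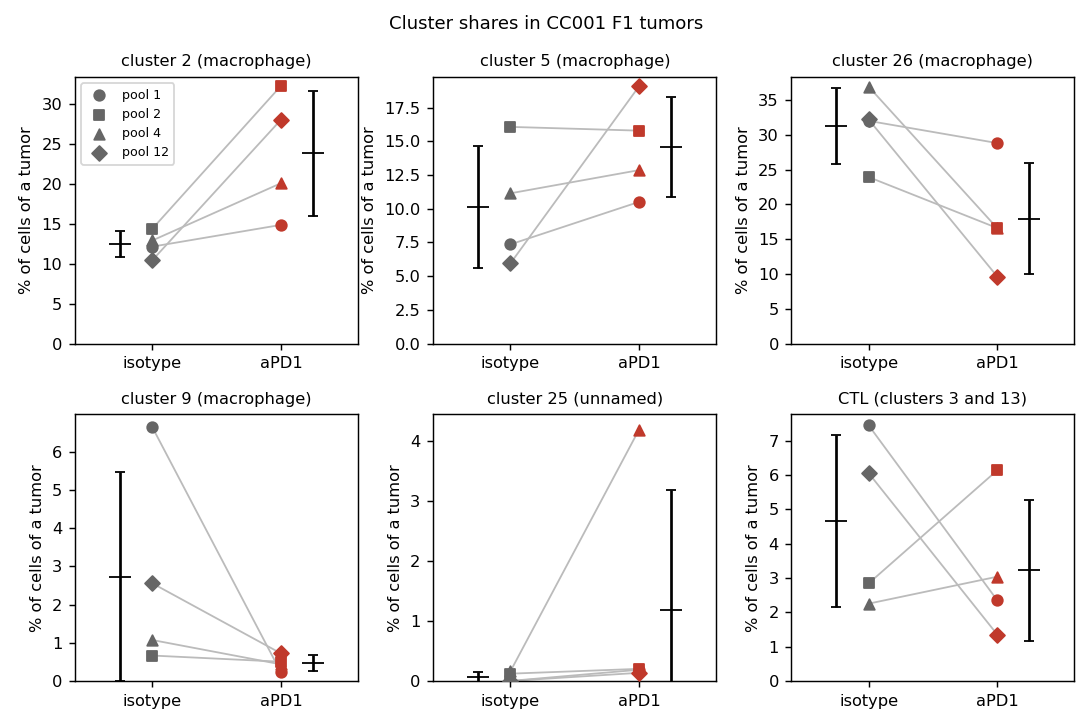
Percent of each tumor's cells (y axis) in cell classes and clusters, for isotype (grey) and aPD1 (red) tumors of CC001 F1 hosts. Bars are the mean and SD of 4 tumors (lower ends below 0 are not drawn), points are tumors (circle pool 1, square pool 2, triangle pool 4, diamond pool 12) and lines join the tumors of a pool. Cluster 2 sits between 10.4 and 14.4 percent with isotype and between 14.9 and 32.3 percent with aPD1, while the lines of the CTL share cross.

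Measures of IFN-γ response adapted from those of the study were each higher on average with aPD1, without passing a test within this strain. The study counted high-scoring cells of macrophage clusters 2, 5 and 26 only and took the Cxcl9 to Spp1 ratio from bulk RNA. Here all macrophages and sums of single cells were used. The macrophage IFN-γ signature is the mean log2(CPM + 1) over 18 mouse counterparts of a published profile of tumor inflammation, 7 of which are T/NK genes. It was 4.65, 5.04, 4.94 and 4.50 in the isotype tumors and 4.98, 5.80, 5.09 and 5.33 in the aPD1 tumors, higher with aPD1 in 4 of 4 pools by a mean of 0.52 (means 4.78 ± 0.25 and 5.30 ± 0.36, SD, n = 4, exact permutation p = 0.0571, adjusted p = 0.4 over 7 values). The arms overlapped, and the aPD1 tumor of pool 2 had the highest value. IFN-γ-high macrophages, defined as macrophages in the upper 25% of the per-cell score over all tumors of the series after each cell was thinned to 1000 UMIs, made up 11.4, 27.6, 20.6 and 9.24 percent of the cells with isotype and 20.6, 57.8, 25.8 and 28.2 percent with aPD1. This share was higher in all 4 pools by a mean of 15.9 percentage points, with an SD of 16.8 among aPD1 tumors (exact permutation p = 0.143, n = 4 per arm). Exact sign flips within pools gave p = 0.125 for this share and for the signature, the smallest they can give. Thinning left out 54 to 142 cells of each isotype tumor and 116 to 207 of each aPD1 tumor, and without thinning the means were 15.9 and 32.1 percent.

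The transcript of the ligand itself was unevenly distributed over the pools. Ifng summed over all cells was at 18.7, 20.7, 8.74 and 10.8 CPM with isotype and at 8.02, 106, 80.1 and 21.3 CPM with aPD1, so that pools 2 and 4 held the high values and pool 1 was lower with aPD1 (exact permutation p = 0.257 on log2(CPM + 1), n = 4 per arm). The log2 ratio of Cxcl9 to Spp1 (an IFN-γ-induced chemokine against osteopontin, a gene of lipid-handling macrophages) was -2.62, -0.34, -0.10 and -3.05 with isotype and -0.73, 2.08, -1.37 and 0.51 with aPD1, higher in 3 of 4 pools and lower in pool 4 (exact permutation p = 0.2). The plot of IFN-γ measures by tumor shows the spread among pools.

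**Figure D2:**
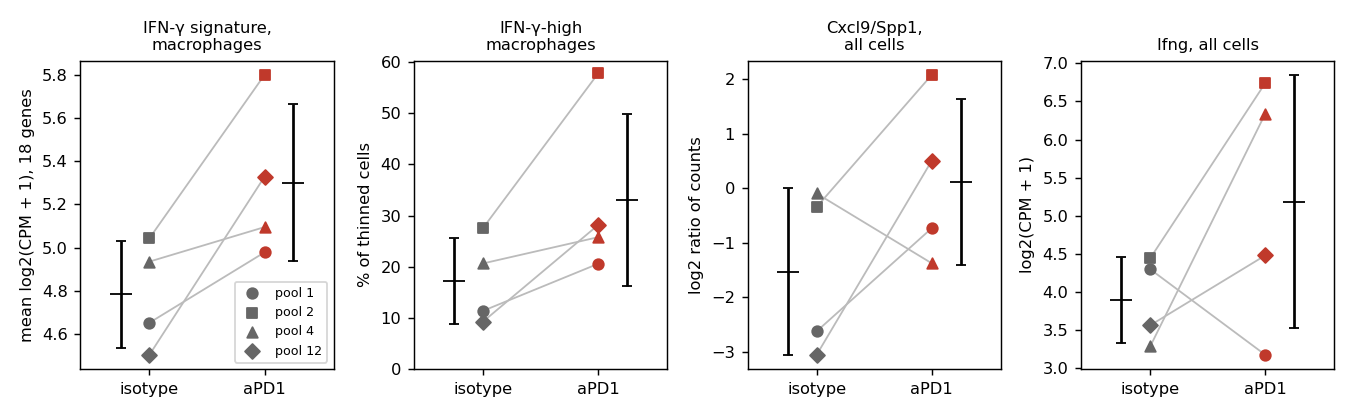
Measures of IFN-γ response (y axes, in the units of each panel) for isotype (grey) and aPD1 (red) tumors of CC001 F1 hosts. Bars are the mean and SD of 4 tumors, points are tumors (circle pool 1, square pool 2, triangle pool 4, diamond pool 12) and lines join a pool. The IFN-γ-high macrophage share climbs in each pool, from 27.6 to 57.8 percent in pool 2 and from 20.6 to 25.8 percent in pool 4.

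Macrophage transcripts were then compared with the counts of all macrophages of a tumor summed, which takes in both changes within cells and changes in the mix of clusters. In a quasi-likelihood fit with the pool as a block (edgeR, Benjamini-Hochberg adjusted p under 0.05), 51 of 11369 genes (0.449%) changed with aPD1, of which 41 rose (0.361%) and 10 fell (0.088%). All 51 moved the same way in the 4 pools, which a fit with the pool as a block favours, and the share of all genes that did so was not computed. Of the 51, 16 had arms that did not overlap, as did 396 of all genes tested (3.48%). The median over all genes was -0.00497 on the log2 scale. Those that rose included Ccl5, Cd274, Ly6c2, Plac8, Acod1 and Ass1, and the largest decreases were of Gas6 and Cbr2, both among the leading genes of the resident-like cluster 9. Without the block 1 gene passed, and leaving out a pool gave 7 genes (pool 2), 8 (pool 12), 39 (pool 4) or 297 (pool 1). Scaling libraries by size alone gave 55 genes, 33 higher and 22 lower. Measures of RNA quality and depth moved with treatment. Mitochondrial genes took 1.88, 1.71, 1.90 and 1.55 percent of the macrophage counts with isotype and 1.79, 1.43, 1.48 and 1.14 percent with aPD1, and the median of UMIs per cell over all cells was 4768, 3317, 3753 and 4484 with isotype and 4593, 3146, 2920 and 3364 with aPD1. Both were lower with aPD1 in each pool, and their part in the gene changes was not tested.

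Chemokine and interferon-response genes were among those that rose. Ccl5, a chemokine that draws T cells and monocytes (chr11:83525778-83530518, minus strand, GRCm38), was at 128, 324, 169 and 93.1 CPM in the isotype tumors and 308, 2494, 342 and 547 CPM in the aPD1 tumors, and rose in each pool (log2 fold change 2.00 ± 0.32, adjusted p = 0.0493 in edgeR, fold changes being aPD1 over isotype ± SE). The aPD1 tumor of pool 2 stood far above the others and the arms overlapped. Cd274, which encodes PD-L1 (chr19:29367455-29388095, plus strand), was at 65.0, 135, 85.9 and 68.6 CPM in the isotype tumors and 115, 384, 165 and 212 CPM in the aPD1 tumors and rose as well (log2 fold change 1.28 ± 0.15, adjusted p = 0.0181 in edgeR). Only the pool 1 aPD1 tumor lay within the isotype range. Gbp2, an IFN-γ-induced guanylate-binding protein, was at 81.5, 187, 139 and 70.3 CPM in the isotype tumors and 161, 552, 209 and 249 CPM in the aPD1 tumors and rose (log2 fold change 1.30 ± 0.19, adjusted p = 0.0381 in edgeR), with the lowest aPD1 tumor under the highest isotype tumor. The interferon-induced membrane protein Ifitm1 rose by 1.79 ± 0.12 on the log2 scale and the cytokine signalling inhibitor Socs1 by 1.13 ± 0.17 (edgeR adjusted p = 0.00126 and 0.0434).

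Of the 6 monocyte markers 2 rose, Ly6c2 and Plac8, and none of the other 4 passed the test. Ly6c2, a component of the monocyte surface antigen Ly6C, was at 80.0, 183, 124 and 98.3 CPM in the isotype tumors and 186, 463, 308 and 481 CPM in the aPD1 tumors and rose (log2 fold change 1.60 ± 0.16, adjusted p = 0.0164 in edgeR), with the lowest aPD1 value just above the highest isotype value. Plac8 was at 161, 339, 178 and 209 CPM in the isotype tumors and 297, 742, 663 and 1024 CPM in the aPD1 tumors and rose by 1.61 ± 0.21 on the log2 scale (edgeR adjusted p = 0.0250). Ly6i, of the same family as Ly6c2, rose by 1.61 ± 0.19 and the chitinase-like secreted protein Chil1 by 1.77 ± 0.28 (edgeR adjusted p = 0.0239 and 0.0491). The summed level of 6 monocyte markers in macrophages, 2 of which are Ly6c2 and Plac8, ran from 592 to 987 CPM with isotype and from 809 to 2298 CPM with aPD1, with 5 of 6 higher on average. That of 5 resident-like markers ran from 342 to 828 CPM and from 175 to 419 CPM, with none of the 5 higher. How much of the gene changes these shifts carry was not tested, and the same 4 genes also rose within clusters 2 and 5, Chil1 in cluster 5 in 3 of 4 pools.

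Of the 5 tested genes of arginine and itaconate metabolism 3 rose. Acod1, the enzyme that makes itaconate, was at 25.7, 99.1, 77.6 and 28.3 CPM in the isotype tumors and 121, 286, 109.7 and 107 CPM in the aPD1 tumors and rose (log2 fold change 1.58 ± 0.25, adjusted p = 0.0491 in edgeR), and the arms did not overlap. Ass1 (argininosuccinate synthase) and Slc7a2 (a cationic amino acid transporter) rose by 1.22 ± 0.17 and 0.90 ± 0.12 on the log2 scale, while Nos2 (1.30, adjusted p = 0.272) and Arg1 (0.25) did not pass in edgeR. Upp1, uridine phosphorylase, was at 11.5, 33.0, 17.1 and 9.99 CPM in the isotype tumors and 36.5, 135, 42.5 and 37.4 CPM in the aPD1 tumors and rose by 1.80 ± 0.14 (edgeR adjusted p = 0.00285). Traf1, an adaptor of TNF receptor signalling, rose by 1.36 ± 0.21, the costimulatory receptor Tnfrsf9 (4-1BB) by 2.34 ± 0.21 and the angiogenic factor Vegfa by 1.10 ± 0.12 (edgeR adjusted p = 0.0491, 0.00705 and 0.0174).

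The 10 genes that fell included Gas6, Cbr2, Folr2 and Igf1, of which Folr2 is a resident-like marker, the 1 called of the 3 such markers tested. Gas6, the ligand of the TAM receptors that clear dying cells (chr8:13465374-13494490, minus strand), was at 74.3, 14.1, 20.4 and 40.7 CPM in the isotype tumors and 18.8, 2.56, 9.06 and 4.29 CPM in the aPD1 tumors and fell in each pool (log2 fold change -2.09 ± 0.28, adjusted p = 0.0319 in edgeR). Cbr2, a carbonyl reductase, was at 120.2, 22.9, 26.4 and 103 CPM in the isotype tumors and 28.0, 7.67, 7.60 and 24.0 CPM in the aPD1 tumors and fell (log2 fold change -1.89 ± 0.13, adjusted p = 0.00126 in edgeR). The isotype tumors of pools 1 and 12 held the high values of both genes, and the arms overlapped. Folr2, the folate receptor of resident macrophages, fell by 1.32 and the growth factor Igf1 by 1.42 on the log2 scale (edgeR adjusted p = 0.0491 and 0.0329). Smaller decreases were seen for the scaffold gene Tanc2 (-0.90 ± 0.11), the endocytic scaffold Itsn1 (-0.89 ± 0.12), the Arf exchange factor Psd3 (-0.77 ± 0.11) and the integrin Itga9 (-0.71 ± 0.11).

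Slc15a2, which encodes a transporter of small peptides (chr16:36750177-36784962, minus strand), behaved unlike the rest. It was at 0.425, 0.176, 0.537 and 0.253 CPM in the isotype tumors and 27.1, 48.6, 24.9 and 42.3 CPM in the aPD1 tumors in macrophages (edgeR adjusted p = 7.19e-05), and at 1.59, 0, 3.19 and 0 CPM in the isotype tumors and 34.7, 30.0, 57.3 and 49.8 CPM in the aPD1 tumors in T/NK cells (edgeR adjusted p = 5.62e-05), where the isotype values rest on at most 1 count per tumor. Because isotype tumors held so few counts no fold change is given. All 4 isotype tumors were low and all 4 aPD1 tumors high, in both classes. In the other strains, over all cells, it was at 5 CPM or more in 13 of 20 isotype and 14 of 20 aPD1 tumors, and ranged from 0 to 123 CPM with isotype and from 0.116 to 114 CPM with aPD1. Some strains varied from tumor to tumor in either arm, as did C57BL/6J hosts, where 2 of 3 tumors in each arm were at 5 CPM or more. Others did not, since all CC002 tumors were at 13.1 to 30.6 CPM and all CC007 tumors at 48.3 to 123 CPM.

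**Figure D3:**
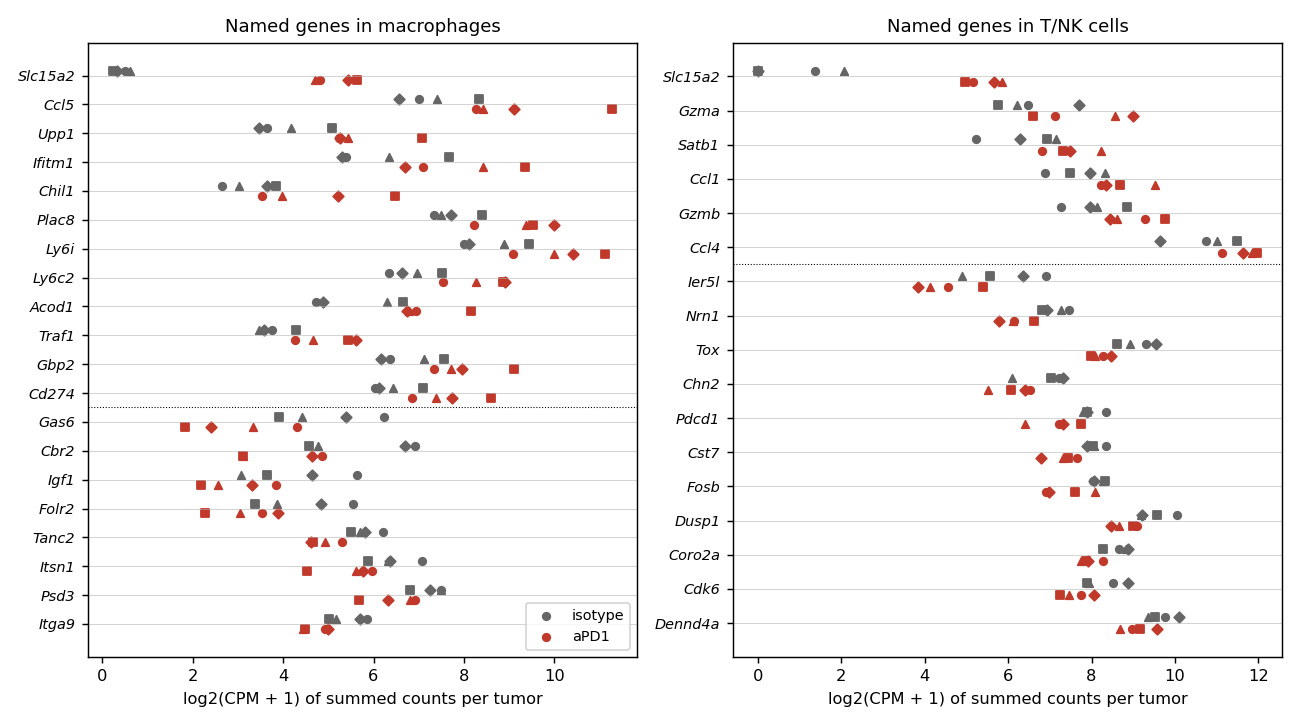
Levels of the named genes in macrophages and T/NK cells, as log2(CPM + 1) of the counts summed per tumor (x axis), for isotype (grey) and aPD1 (red) tumors. Each point is a tumor (circle pool 1, square pool 2, triangle pool 4, diamond pool 12), and a dotted line separates genes that rose from those that fell. Slc15a2 separates the arms widely, while Ccl5 and Gas6 overlap between arms and shift within each pool.

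Across the IFN-γ lists most members were higher in macrophages with aPD1, and the number that passed depended on the pools in the fit. Of 64 genes in 7 lists (the signature, signalling, CXCR3 chemokines, GBP, IRG, and the MHC class I and II machinery), 58 were tested and 54 had a positive fold change, with a median of 0.61, and 5 rose, among them Ccl5, Cd274, Gbp2 and Socs1. The number called was 0 without pool 2, 0 without pool 12, 22 without pool 1, 9 without pool 4, 33 with DESeq2, 1 without cluster 5, 0 without the block and 0 with all tumors in the fit, while 52 to 56 were positive in those fits. With every gene of at least 1 count kept, 63 were tested, 59 were positive and 46 were called. Scaling by size alone gave 4 called. Over all genes 48.8% were positive. By role, the receptor subunits and kinase Ifngr1, Ifngr2 and Jak1 had log2 fold changes of -0.13, 0.07 and 0.03, and Irf1, the transcription factor that IFN-γ induces, 0.87 ± 0.16 (edgeR adjusted p = 0.0546), none passing. Cxcl9, the CXCR3 ligand, was at 336, 904, 1078 and 243 CPM in the isotype tumors and 942, 2773, 927 and 791 CPM in the aPD1 tumors and did not pass (log2 fold change 1.22 ± 0.30, adjusted p = 0.120 in edgeR), being lower with aPD1 in pool 4. GBP genes had a median of 1.02 (10 of 10 positive, 1 called), beside 0.76 for IRG (9 of 9, 0 called), 0.48 for MHC class I (11 of 11, 0 called) and 0.50 for MHC class II (6 of 6, 0 called).

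Other programs of macrophages gave 1 call among them. Type I interferon genes were positive in 17 of 17 with a median of 0.38 and none called. Spp1 and lipid-handling genes were positive in 1 of 9, with a median of -0.39 and none called, Apoe at -0.99 ± 0.24 (edgeR adjusted p = 0.112) and Spp1 at -0.52 ± 0.40. Of 5 tested resident and scavenger genes Folr2 fell, and Stab1 (-0.78 ± 0.13) and Mrc1 (-0.78 ± 0.20) did not pass. Cell-cycle genes were positive in 0 of 15, with a median of -0.32 and none called, and within single clusters they were positive in 1 of 14 in cluster 2, 1 of 12 in cluster 5 and 9 of 15 in cluster 26, where the median was 0.09, again with none called.

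Testing single clusters asked whether genes moved within cells of one kind. Of 27 clusters, 12 had at least 20 cells in both tumors of 3 or more pools, and the inflammatory cluster 2 and the Ccr2-expressing cluster 5 held most of the 337 calls. In cluster 2, 106 of 8495 genes (1.25%) changed, 96 higher (1.13%) and 10 lower (0.118%), and in cluster 5, 144 of 7402 (1.95%), 115 higher (1.55%) and 29 lower (0.392%), whereas in cluster 26 it was 21 of 9545 (0.22%; edgeR, pool as block). Clusters 2 and 5 shared 67 called genes, 63.2% of the first list and 46.5% of the second, and 61 of them rose in both. In cluster 2, 46 of the called genes had arms that did not overlap, as did 3.92% of all genes tested, and in cluster 5 it was 50 against 3.61%. The same direction in all 4 pools was seen for 105 of the 106 called genes of cluster 2 and 124 of the 144 of cluster 5. The counts moved with the samples and the model. Without the block 1, 3 and 1 genes passed in clusters 2, 5 and 26, and leaving out pool 2 gave 7, 42 and 25, pool 12 41, 57 and 4, pool 1 59, 152 and 10, and pool 4 101, 139 and 40.

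Within clusters 2 and 5 just over 50% of the tested IFN-γ genes rose with all 4 pools in the fit. Of the 64 listed genes 51 were tested in cluster 2, and 28 of them (54.9%) rose, 48 having a positive fold change with a median of 0.82. In cluster 5, 27 of 51 (52.9%) rose with a median of 0.63, and in cluster 26, 5 of 52 (9.62%) with a median of 0.48. No difference between clusters was tested. In cluster 2 the number of positive genes was 48 under each alternative tried, but the number called was 1 without pool 2, 7 without pool 12, 15 without pool 1 and 0 without the block. In cluster 5, where 49 or 50 were positive, the number called was 8 without pool 2, 11 without pool 12, 11 with DESeq2 and 0 without the block. In cluster 26 it was 0 to 7 with a pool left out, 9 with DESeq2 and 0 without the block.

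Signalling genes came first in the pathway. Irf1 (chr11:53770014-53778374, plus strand) was at 83.0, 129, 91.2 and 65.9 CPM in the isotype tumors and 199, 263, 141 and 168 CPM in the aPD1 tumors in cluster 2 (log2 fold change 1.08 ± 0.14, adjusted p = 0.00374 in edgeR), with no overlap of arms. The kinase Jak2 rose by 0.97 ± 0.21 in cluster 2 and 1.32 ± 0.19 in cluster 5, and Socs1 by 1.02 ± 0.18 and 1.62 ± 0.23. Ciita, the regulator of MHC class II, rose in cluster 2 and Nlrc5, its counterpart for class I, in cluster 5, and in each cluster 5 of 11 tested signalling genes rose.

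Chemokines and effector GTPases came next. Cxcl9 (chr5:92321347-92328079, minus strand) in cluster 2 was at 267, 755, 565 and 150.0 CPM in the isotype tumors and 844, 2262, 645 and 717 CPM in the aPD1 tumors (log2 fold change 1.42 ± 0.24, adjusted p = 0.0122 in edgeR), and in cluster 5 at 285, 1424, 1058 and 452 CPM in the isotype tumors and 992, 3069, 1159.7 and 1141 CPM in the aPD1 tumors (log2 fold change 1.09 ± 0.17, adjusted p = 4.93e-04 in edgeR). The arms overlapped in both, and the isotype tumors of pools 2 and 4 were already high. Ccl5 rose by 2.07 ± 0.21 in cluster 2 and 1.87 ± 0.29 in cluster 5, and Cxcl10 by 1.05 ± 0.21 and 1.37 ± 0.28, the latter with a lower value in pool 4. Guanylate-binding proteins rose in 7 of 8 tested in cluster 2 and in 4 of 8 in cluster 5. Of these Gbp4 was at 31.9, 54.4, 30.4 and 10.7 CPM in the isotype tumors and 73.5, 156, 70.1 and 97.7 CPM in the aPD1 tumors in cluster 2 (log2 fold change 1.72 ± 0.24, adjusted p = 0.00527 in edgeR), with no overlap. Gbp5 was at 5.53, 60.4, 39.9 and 23.2 CPM in the isotype tumors and 61.1, 168, 76.5 and 73.0 CPM in the aPD1 tumors in cluster 5 (log2 fold change 1.54 ± 0.22, adjusted p = 2.14e-04 in edgeR), its arms just apart. Immunity-related GTPases rose in 4 of 7 in cluster 2 and 5 of 7 in cluster 5, Iigp1 by 1.98 ± 0.34 and 1.34 ± 0.26, the latter with a lower value in pool 1.

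Antigen presentation genes followed, with smaller fold changes. In cluster 2 the class I machinery rose in 6 of 11 genes, among them the peptide transporter subunit Tap1 at 63.8, 102, 81.4 and 44.5 CPM in the isotype tumors and 112, 165, 124 and 147 CPM in the aPD1 tumors (log2 fold change 0.96 ± 0.17, adjusted p = 0.0162 in edgeR) and β2-microglobulin, B2m, at 2309.8, 2957, 2648 and 2141 CPM in the isotype tumors and 3079.5, 4339.9, 3442 and 3350.5 CPM in the aPD1 tumors (log2 fold change 0.50 ± 0.09, adjusted p = 0.0175 in edgeR). Every aPD1 tumor exceeded every isotype tumor for both. In cluster 5 the class I genes rose in 3 of 11, while the class II genes rose in 4 of 6, H2-Aa by 0.46 ± 0.10, H2-Ab1 by 0.48 ± 0.10, H2-Eb1 by 0.43 ± 0.10 and the invariant chain Cd74 by 0.38 ± 0.08 on the log2 scale. In cluster 2, 1 of 6 class II genes rose.

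Of the checkpoint list, 1 of 4 tested genes rose in cluster 2 and 2 of 4 in cluster 5, and of the inflammatory list 1 of 9 (Il1b) and 2 of 6 (Il1b and Ptgs2). Cd274 was at 76.6, 140.1, 97.7 and 66.7 CPM in the isotype tumors and 174, 451, 132 and 219 CPM in the aPD1 tumors in cluster 2 (log2 fold change 1.28 ± 0.19, adjusted p = 0.00772 in edgeR) and at 35.9, 125, 74.1 and 42.5 CPM in the isotype tumors and 67.5, 359, 144 and 146 CPM in the aPD1 tumors in cluster 5 (log2 fold change 1.37 ± 0.17, adjusted p = 4.34e-05 in edgeR). The arms overlapped in both. Pdcd1lg2, which encodes the other PD-1 ligand, PD-L2, rose in cluster 5 by 1.40 ± 0.34 (edgeR adjusted p = 0.0260) and did not pass in cluster 2 (edgeR adjusted p = 0.0976). Il1b, the inflammatory cytokine, was at 254, 298, 214 and 73.4 CPM in the isotype tumors and 420.4, 976, 605 and 562 CPM in the aPD1 tumors in cluster 5 (log2 fold change 1.69 ± 0.19, adjusted p = 1.45e-05 in edgeR). The arms for Il1b did not overlap, and in cluster 2, which it leads, it rose by 0.66 ± 0.12. Tnf did not pass in either cluster, and the neutrophil attractants Cxcl1, Cxcl2 and Cxcl3 had log2 fold changes of -1.49, -0.50 and -0.97 in cluster 2 without passing. Ptgs2, cyclooxygenase-2, and Acod1 rose in cluster 5 by 2.43 ± 0.44 and 2.02 ± 0.28 (edgeR adjusted p = 0.00286 and 1.99e-04). Tnfrsf9 rose in cluster 2 by 2.27 ± 0.29, Il18bp, the IFN-γ-induced decoy of IL-18, by 1.66 ± 0.17, Upp1 by 1.50 ± 0.17 and complement C3 by 1.43 ± 0.26. Type I interferon genes rose in 1 of 16 tested in cluster 2 (Irf7) and in 3 of 15 in cluster 5.

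The decreases in these clusters were few. Chil3, a chitinase-like protein of monocytes and alternatively activated macrophages, was at 339.6, 90.3, 87.9 and 529.8 CPM in the isotype tumors and 56.1, 43.9, 40.4 and 130.5 CPM in the aPD1 tumors in cluster 2 (log2 fold change -1.77 ± 0.23, adjusted p = 0.00374 in edgeR) and fell in cluster 5 as well (log2 fold change -1.68 ± 0.32, adjusted p = 0.00391 in edgeR). Its arms overlapped, with the isotype tumors of pools 1 and 12 high. Chil3 is one of the 6 monocyte markers, and it moved against Ly6c2 and Plac8, which rose in both clusters. In cluster 5 the collagenase Mmp13 was at 24.9, 25.2, 22.8 and 23.2 CPM in the isotype tumors and 4.02, 7.87, 5.80 and 7.07 CPM in the aPD1 tumors (log2 fold change -1.90 ± 0.35, adjusted p = 0.00342 in edgeR), with arms far apart. Apoe, the lipid carrier, was at 8198, 5349.9, 3262 and 8907 CPM in the isotype tumors and 4734, 4475, 2489.9 and 3111 CPM in the aPD1 tumors (log2 fold change -0.71 ± 0.14, adjusted p = 0.00631 in edgeR), lower in each pool with overlapping arms, and the tetraspanin Cd63 fell by 0.68 on the log2 scale. The nucleoside transporter Slc29a1 fell in cluster 2 by 1.04 and the Kelch-family gene Klhl6 in cluster 5 by 1.63.

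**Figure D4:**
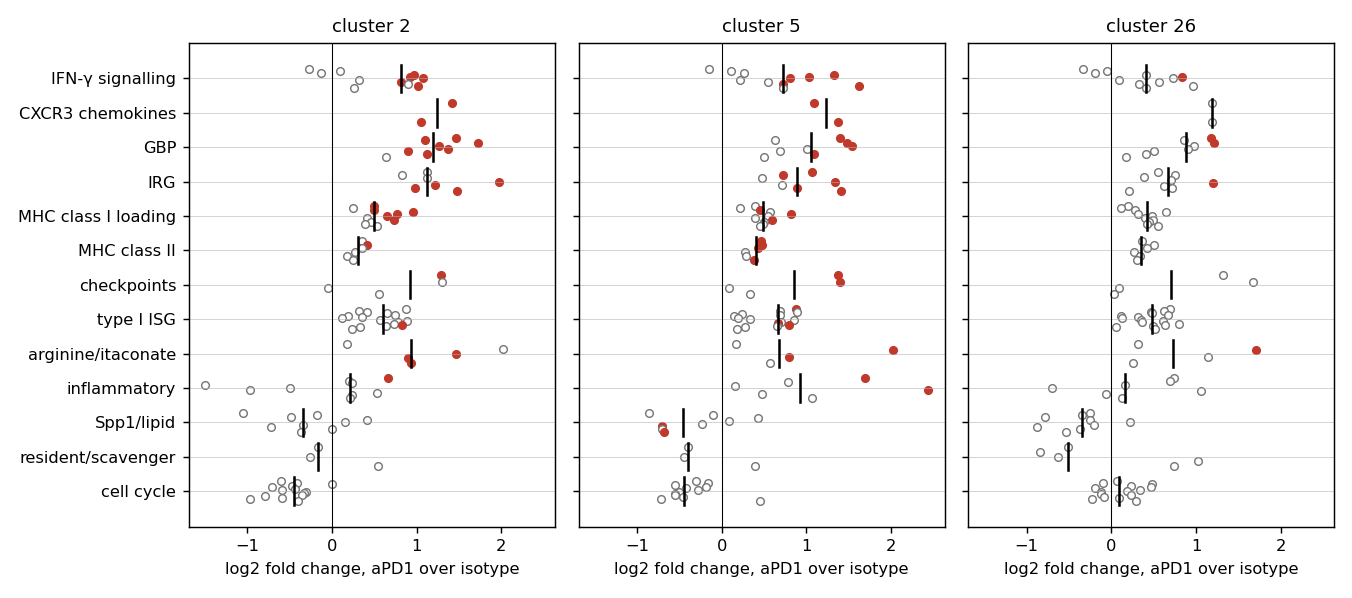
Log2 fold changes (aPD1 over isotype, x axis) of the members of gene lists (rows) in clusters 2, 5 and 26. Points are genes, filled red where the edgeR adjusted p is under 0.05, and black bars are list medians. All tested GBP, IRG and CXCR3 chemokine genes sit above 0 in clusters 2 and 5, and the cell-cycle genes of cluster 2 have a median of -0.45 and no gene called.

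The sequences below show the IFN-γ pathway's known DNA elements in the promoters of genes that rose in clusters 2 or 5. Promoters were RefSeq windows of GRCm38.p6 from 250 bases before to 50 after the start, searched on both strands for the interferon-γ activated site, GAS (TTCNNNGAA) and the core of the interferon-stimulated response element, ISRE (GAAA, 2 bases of any kind, GAAA), 2 motifs that share the letters GAA and may stand in one promoter. The ISRE core stood in 21 of 76 matched promoters of genes higher in cluster 2 (27.6%) and in 18 of 90 in cluster 5, against 3.49% of all 27025 promoters. GAS stood in 13.2% and 13.3%, against 8.47% of all promoters and 6.92% and 6.79% of those of the genes tested. It stood at a like rate in the few genes that fell, in 1 of 7 in cluster 2 and 3 of 22 in cluster 5 (13.6%), where the ISRE core stood in 0 and 1. Matches describe letters only and show no binding. Capitals mark the matched motif and lower case its flanks, 5′ to 3′, with the strand of each given. The Irf1 GAS match lay at chr11:53769914-53769942, plus strand, 90 bases upstream of the start, the Gbp5 GAS match at chr3:142496684-142496707, plus strand, 245 bases upstream of the start and the Gbp5 ISRE match at chr3:142496759-142496788, minus strand, 165 bases upstream of the start. Further ISRE matches were those of Gbp2 at chr3:142620594-142620623, minus strand, 59 bases upstream of the start, Cxcl10 at chr5:92349083-92349112, minus strand, 213 bases upstream of the start, B2m at chr2:122147538-122147567, plus strand, 139 bases upstream of the start and Socs1 at chr16:10785600-10785629, minus strand, 83 bases upstream of the start.
Irf1 GAS: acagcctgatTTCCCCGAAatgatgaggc
Gbp5 GAS: gcaacTTCTGGGAAattagttcag
Gbp5 ISRE: tctctaaactGAAATTGAAActacacaagt
Gbp2 ISRE: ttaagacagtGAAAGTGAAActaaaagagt
Cxcl10 ISRE: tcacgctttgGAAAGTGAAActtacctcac
B2m ISRE: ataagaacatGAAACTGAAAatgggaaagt
Socs1 ISRE: agacttgccgGAAAGAGAAAccgaaagcgg

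Cluster 26, a group whose share was lower with aPD1 in every pool, had 18 genes that rose (0.189%) and 3 that fell (0.0314%). Ccl5 was at 75.0, 146, 81.8 and 82.3 CPM in the isotype tumors and 116, 1909.7, 306 and 460.2 CPM in the aPD1 tumors (log2 fold change 2.25 ± 0.35, adjusted p = 0.0324 in edgeR). It was higher in each pool, with overlapping arms. Gbp2, Gbp4, Tgtp2, Acod1, Ifitm1, Ly6c2 and Ly6i rose too, Ifitm1 by 1.95 ± 0.20 and Ly6c2 by 1.83 ± 0.26 on the log2 scale. Those that fell were Gas6 (-1.34 ± 0.23), Cbr2 (-1.17 ± 0.20) and the leukotriene synthase Ltc4s (-1.29 ± 0.21), so the decreases of Gas6 and Cbr2 were also seen within this cluster.

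Smaller myeloid clusters gave shorter lists. In cluster 21, led by the type I interferon genes Ifit3 and Rsad2, 11 genes changed (0.247%), 8 higher (0.18%) and 3 lower (0.0674%). Ciita was at 7.64, 22.2, 17.7 and 23.8 CPM in the isotype tumors and 48.5, 66.5, 63.3 and 127 CPM in the aPD1 tumors there (log2 fold change 2.01 ± 0.29, adjusted p = 0.00562 in edgeR), with no overlap, and the metallothioneins Mt1 and Mt2, which bind zinc and copper, fell by 1.29 and 1.73 on the log2 scale. In cluster 27, led by Gpnmb, Hmox1 and Mmp12, 22 genes changed (0.403%), 13 higher (0.238%) and 9 lower (0.165%), with the acute-phase gene Saa3 at 90.1, 3.72, 46.1 and 807 CPM in the isotype tumors and 6.74, 0, 0 and 23.6 CPM in the aPD1 tumors (edgeR adjusted p = 2.33e-06). The isotype tumor of pool 12 held the high value of Saa3, and 2 aPD1 tumors were at 0. The niacin receptor Hcar2 rose by 1.57 ± 0.28, Ifit3 by 1.54 ± 0.32 and Cd274 by 0.84 ± 0.15, while Apoe and the mannose receptor Mrc1 fell by 0.59 and 0.99. In the cycling cluster 17, tested in 3 pools, 8 genes changed (0.12%), 6 higher (0.0899%) and 2 lower (0.03%), and Il1b rose by 2.31 ± 0.17 while the elastase Mmp12 and Apoe fell by 1.06 and 0.74. Without the block 0 genes passed in clusters 27 and 17 (323 and 203 at an unadjusted p under 0.05), and DESeq2 kept 10 and 5 of their calls. Clusters 14 (cDC2) and 20 (unnamed) had 2 called genes each (0.0364% and 0.0285%), Plac8 rising in the first by 1.32 ± 0.16. With a minimum of 50 cells per tumor this call was lost, and 7 of the 11 calls of cluster 21 and 9 of the 22 of cluster 27 were kept. Clusters 4 and 19 had 0 called by edgeR, with 199 and 134 at an unadjusted p under 0.05 and 2 and 0 called by DESeq2.

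T/NK cells, the cells that carry PD-1, had 24 of 6899 genes past the threshold (0.348%), 9 higher (0.13%) and 15 lower (0.217%) in the edgeR fit with the pool as block. Those that rose included Gzma, Gzmb, Ifng and Ccl4, and those that fell the receptor Pdcd1 and the exhaustion-linked factor Tox. The sum mixes clusters whose shares differed between the arms. Cluster 3, led by Cd8a and Pdcd1, held 47.9, 31.7, 37.1 and 51.1 percent of the T/NK cells with isotype and 24.6, 37.5, 14.2 and 16.4 percent with aPD1, lower in 3 of 4 pools. Cluster 7, led by Lef1 and Tcf7 among others, held 8.59, 14.2, 6.67 and 15.1 percent with isotype and 10.3, 19.8, 40.6 and 33.6 percent with aPD1, higher in all 4 pools. Cluster 24, whose leading genes include Gzma, held 4.29, 6.67, 3.81 and 5.33 percent with isotype. With aPD1 it held 7.39, 7.77, 7.55 and 13.7 percent, higher in all 4 pools. Cluster 13, whose leading genes include Ifng, Ccl1 and Ccl4, was higher in 3 of 4 pools. Gzma, Ccl1 and Ccl4 were not called in clusters 3 or 8, and clusters 13 and 24 were not tested for genes. The part of this mix in the calls was not tested beyond the single clusters. Of the 24 genes, 20 moved the same way in the 4 pools, and 6 had arms that did not overlap, as did 198 of all genes tested (2.87%). Without the block 1 gene passed, and leaving out a pool gave 6 genes (pool 12), 12 (pool 1), 20 (pool 4) or 51 (pool 2). Scaling by size alone gave 18 genes, 9 higher and 9 lower. Markers of macrophages in the 1563 T/NK cells summed to 284 to 1069 CPM with isotype and 180 to 1459 CPM with aPD1. Their part in the calls was not tested, except that leaving out cluster 12, which holds haemoglobin and macrophage transcripts, left 12 genes. Gzma and Gzmb are also among the leading genes of cluster 12, so leaving it out removed granzyme-expressing cells too.

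Among effectors, granzyme B, Gzmb (chr14:56258838-56262260, minus strand), was at 153, 461, 281 and 249 CPM in the isotype tumors and 623, 872, 393 and 348 CPM in the aPD1 tumors and rose in each pool (log2 fold change 0.94 ± 0.19, adjusted p = 0.0351 in edgeR). Granzyme A, Gzma, was at 87.6, 52.6, 73.3 and 208 CPM in the isotype tumors and 139, 95.3, 376 and 511 CPM in the aPD1 tumors and also rose (log2 fold change 1.24 ± 0.20, adjusted p = 0.0141 in edgeR). The arms of both overlapped. The ligand gene Ifng was at 193, 483, 277 and 133 CPM in the isotype tumors and 187, 864, 863 and 383 CPM in the aPD1 tumors and passed the test (log2 fold change 0.96 ± 0.20, adjusted p = 0.0351 in edgeR), although pool 1 was slightly lower with aPD1. Of 12 tested cytotoxic and effector genes, 3 rose. Perforin, Prf1, did not pass (0.35 ± 0.22). The chemokine Ccl4 was at 1728, 2867, 2044 and 793 CPM in the isotype tumors and 2234, 4034, 3684 and 3146 CPM in the aPD1 tumors and rose (log2 fold change 0.88 ± 0.18, adjusted p = 0.0343 in edgeR), while Ccl3 was just outside (1.17 ± 0.26, edgeR adjusted p = 0.0544). Ccl1, a ligand of CCR8, rose by 0.98 ± 0.17 and the chromatin organizer Satb1 by 1.01 ± 0.17 (edgeR adjusted p = 0.0141 and 0.0141). Arg1, a myeloid gene, passed at 14.3, 12.4, 15.9 and 16.9 CPM in the isotype tumors and 58.7, 51.8, 5.46 and 128 CPM in the aPD1 tumors and went the other way in pool 4.

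Pdcd1, which encodes the antibody's target PD-1 (chr1:94038305-94052553, minus strand), was at 325, 235, 220.0 and 238 CPM in the isotype tumors and 148, 212, 83.2 and 157 CPM in the aPD1 tumors. Every aPD1 tumor was below every isotype tumor, and it fell (log2 fold change -0.84 ± 0.18, adjusted p = 0.0455 in edgeR). It passed in 2 of 10 alternatives, and not without pool 1, 4 or 12. Within the single clusters 3 and 8 it did not pass (-0.43 ± 0.17 and -0.39 ± 0.35, edgeR adjusted p = 0.401 and 0.868). It was the 1 of 9 tested checkpoint genes called, and Lag3 (-0.11 ± 0.18) and Ctla4 (-0.17 ± 0.17) did not pass. Tox, a transcription factor of exhausted T cells (chr4:6686353-6991557, minus strand), was at 628, 387, 488 and 741 CPM in the isotype tumors and 307, 251, 269 and 350.4 CPM in the aPD1 tumors and fell, again without overlap (log2 fold change -0.95 ± 0.14, adjusted p = 0.00366 in edgeR). Of 11 state factors tested Tox was the only one called, beside 1.18 ± 0.28 for Lef1 (edgeR adjusted p = 0.0826) and 0.78 ± 0.32 for Tcf7, factors of naive and stem-like T cells. Immediate-early genes were positive in 0 of 12 with a median of -0.49, and Fosb was the member that fell (-0.81 ± 0.17). The MAP kinase phosphatase Dusp1 fell by 0.75 on the log2 scale, the early-response gene Ier5l by 1.57, the protease inhibitor Cst7 by 0.83 and Nrn1 (neuritin) by 1.00. Chn2, Coro2a, Cdk6 and Dennd4a fell by 0.63 to 0.85.

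Within cluster 3, CD8 T cells led by Cd8a and Pdcd1, 18 of 2331 genes changed (0.772%), 10 higher (0.429%) and 8 lower (0.343%). DESeq2 called 2, both higher, and without the block 0 passed (155 at an unadjusted p under 0.05), so each of the 8 decreases was lost in both. Gzmb was at 189.6, 405, 207 and 171 CPM in the isotype tumors and 383, 772, 488 and 517 CPM in the aPD1 tumors (log2 fold change 1.13 ± 0.17, adjusted p = 8.44e-04 in edgeR) and Ifng at 273, 397, 243 and 139 CPM in the isotype tumors and 336, 648, 444 and 373 CPM in the aPD1 tumors (log2 fold change 0.75 ± 0.18, adjusted p = 0.0422 in edgeR). Both rose in all 4 pools, pool 1 included, with overlapping arms. Tox was at 709, 479.6, 604 and 794 CPM in the isotype tumors and 425, 375, 266 and 499.9 CPM in the aPD1 tumors (log2 fold change -0.76 ± 0.15, adjusted p = 0.0119 in edgeR). The integrin Itga4 was at 301, 215, 252 and 349.6 CPM in the isotype tumors and 145, 113, 88.8 and 178 CPM in the aPD1 tumors (log2 fold change -1.12 ± 0.20, adjusted p = 0.00286 in edgeR). The arms were apart for Itga4 and overlapped for Tox. The survival gene Bcl2 fell by 0.98 and the chemokine Xcl1, which was higher in pool 12, by 0.94, whereas the replication-linked gene Pclaf rose by 1.18 ± 0.26 and the T cell receptor segment Trbv13-1 by 1.86 ± 0.31. Counts of near-identical genes such as the receptor segments, Tgtp1 and Tgtp2, or Ly6i and Ly6c2 can be split among copies and are uncertain. In regulatory T cells (cluster 8, led by Foxp3) 3 of 1853 genes changed (0.162%), with 0 in DESeq2 and 0 without the block (38 and 112 at an unadjusted p under 0.05), all 3 lower, among them the glucocorticoid-induced leucine zipper gene Tsc22d3 (-1.69 ± 0.31) and Frmd5 (-1.76 ± 0.36).

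The effect in CC001 F1 hosts was last set against that in other strains, which the study classed as responders (CC002 and CC075 F1, 6 pairs) or non-responders (CC036, CC079 and CC080 F1, 9 pairs) by tumor growth. It placed CC001 F1 among the responders too, so the contrast with the non-responders is also one between classes. The class is the study's and is not a label of these cells, and 1 animal identifier stands on 2 CC080 tumors. The IFN-γ-high macrophage share changed by 9.21, 30.3, 5.14 and 18.9 percentage points in the 4 CC001 pairs. It was higher with aPD1 in 3 of 9 non-responder pairs, and the mean change of 15.9 ± 11.2 in CC001 (SD, n = 4) exceeded that of -1.37 ± 6.01 in the non-responders (SD, n = 9) by 17.3 points. This difference passed (exact permutation of pairs, p = 0.00140, adjusted p = 0.0196 over 14 tests). The test treats pairs as exchangeable, although the 9 stand for 3 strains and 3 of them shared a library with a CC001 pair. In those libraries the changes were 9.21 in CC001 against 5.06 in CC079 (pool 1), 30.3 against -0.387 in CC079 (pool 2) and 5.14 against -13.3 in CC080 (pool 4), higher in CC001 in all 3. Against the responders, whose share was higher in 6 of 6 pairs by a mean of 10.4 points, the difference of 5.45 points did not pass (exact permutation p = 0.405). The signature differed from the non-responders by 0.70 (exact permutation p = 0.0168, adjusted p = 0.117) and the Cxcl9 to Spp1 log2 ratio by 2.21 (exact permutation p = 0.0420, adjusted p = 0.196).

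No cluster share passed the adjustment over 54 tests. The change of cluster 26 differed from the mean change of 4.89 points in the responders by -18.3 points (exact permutation p = 0.0333, adjusted p = 0.331) and from that of 2.44 in the non-responders by -15.8 (exact permutation p = 0.0406). Cluster 5 had a lower share with aPD1 in all 6 responder pairs of other strains and a higher share in 3 of 4 CC001 pairs, a difference of 9.00 points (exact permutation p = 0.0143, adjusted p = 0.257). Cluster 9 differed from the responders by -2.57 points (exact permutation p = 0.00952).

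Gene by gene, a fit of all tumors (edgeR, pool as block) gave the effect in each strain and tested the differences. In macrophages 0 genes differed between CC001 and either class after adjustment. Ccl5 in macrophages had log2 fold changes of 2.13 in CC001, -0.20 in CC002, 2.28 in CC075, -0.54 in CC036, -0.49 in CC079 and -0.27 in CC080. Cd274 had 1.32 in CC001, 0.47 in CC002, 0.74 in CC075, 0.25 in CC036, 0.33 in CC079 and -0.89 in CC080. Apoe was at -1.04 in CC001, 0.16 in CC002, 0.83 in CC075, 0.02 in CC036, -0.17 in CC079 and 0.28 in CC080. Ccl5 was thus positive in 2 of 6 strains, Cd274 in 5 of 6 and Apoe in 4 of 6. Of 13010 macrophage genes 0 passed in edgeR against the responders or the non-responders, with 977 and 1305 at an unadjusted p under 0.05. DESeq2 called 17 against the responders, all lower in CC001, and 0 against the non-responders. Among the 17 were Apoe and Tanc2 (DESeq2 adjusted p = 0.0493 for each). In T/NK cells 0 of 9742 genes differed from the responders (526 at an unadjusted p under 0.05) and 1 (0.0103%) from the non-responders. Tox in T/NK cells had log2 fold changes of -0.96 in CC001, 0.28 in CC002, -0.53 in CC075, -0.39 in CC036, -0.76 in CC079 and 0.26 in CC080. The plot of changes by strain shows the pairs.

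**Figure D5:**
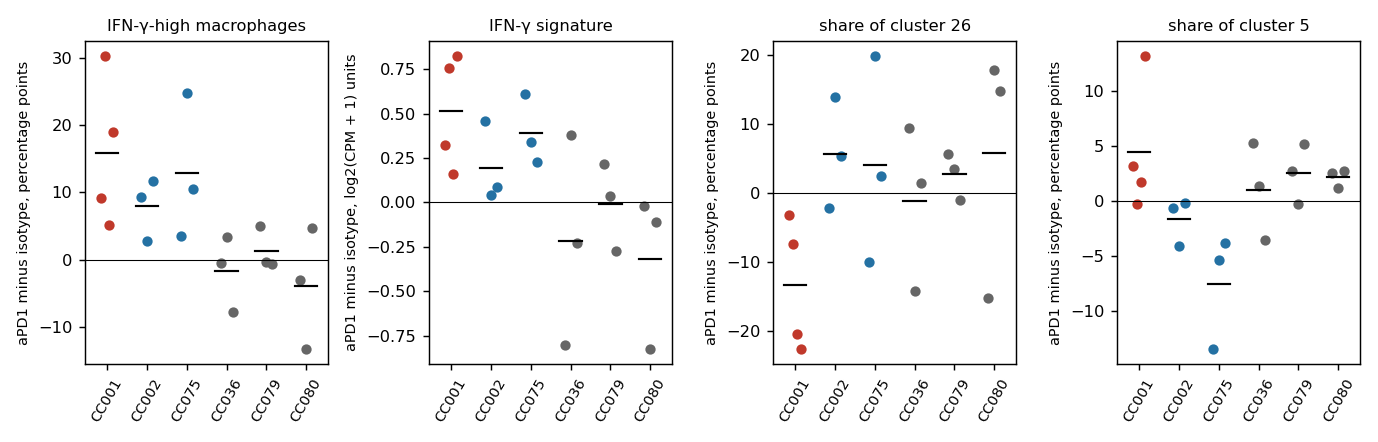
Change with aPD1 within a pool (aPD1 minus isotype, y axes in the units of each panel) by host strain. Points are pairs of tumors and bars are means, with CC001 in red, CC002 and CC075 in blue, and CC036, CC079 and CC080 in grey. For the IFN-γ-high macrophage share the CC001 pairs lie between 5.14 and 30.3 percentage points, all above 0.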

How the data were processed

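Raw UMI counts per gene and cell were deposited by the authors, who aligned 10x 5′ libraries with Cell Ranger to GRCm38 (mm10), assigned specimens by hashtag, removed cells of high mitochondrial or ribosomal content, and clustered cells in Seurat 5.0.1. A treatment of doublets is not given in the sources used here, and no doublet caller was run. The 4 libraries held 8 CC001 F1 tumors, with 6539415 to 17713491 counts each. Their clusters, treatments and strains were taken from the deposited annotation of each cell. Intervals between tumors, not counting error, limit the precision, and low genes rest on few counts.

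Clusters were named from marker lists. The fold floor of the rule was raised to 100 CPM after the data were seen, which placed cluster 5 among macrophages. Hosts, gene lists and tests were chosen with earlier results of these data known. Counts were summed per tumor and cell class or cluster and tested with the edgeR 4.0.16 quasi-likelihood test in R 4.3.3 (TMM, filterByExpr, pool as block, Benjamini-Hochberg threshold 0.05). The test was run on counts simulated without a pool effect, which cannot check the block. The block rests on the labels, since the 2 tumors of a pool share 1 library. Deviations of same-pool tumors from their group means correlated at 0.044 to 0.456 in macrophages and 0.039 to 0.219 in T/NK cells, and those of tumors of different pools at -0.365 to 0.305 and -0.187 to 0.127. A cluster entered with at least 20 cells in both tumors of a pool and at least 3 pools. Shares and scores were compared by two-sided exact permutation tests (scipy 1.17.1), whose smallest p for 4 against 4 tumors is 0.0286. Within CC001 these tests ignored the pools, and sign flips of the 4 within-pool differences can give no p under 0.125. CPM scale counts to 1000000.

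Named genes were the 12 of largest fold change in each direction among those called, at 20 CPM or more in the mean of either group and changed the same way in all pools (3 per direction in a single cluster), beside members of the gene lists. Alternatives were DESeq2 1.42.0, no block, another scaling or filter, a minimum of 50 cells, all tumors in the fit, and each pool left out. Promoters were RefSeq windows of GRCm38.p6, and gene positions are those of GRCm38. Some genes that met these rules are not reported here.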

Additional observations from a re-analysis of the deposited data

Results flagged for a closer look

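Chance sets about 1 in 20 groups of 4 tumors apart by the rule used for single tumors, and 102 groups were tested. In the aPD1 tumors, pool 4 stood far from the other 3 in the share of cluster 25, at 4.19 percent of its cells. In macrophages the aPD1 tumor of pool 2 stood apart for Upp1 at 135 CPM and for Acod1 at 286 CPM.

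The change with aPD1 in CC001 F1 hosts differed from that in other strains at an unadjusted p under 0.05 in 9 comparisons of shares and scores. Against the responder strains the change was larger by 9.00 percentage points for cluster 5 and by 1.13 points for cluster 25, and smaller by the signed differences of -2.57 points for cluster 9 and -18.3 points for cluster 26. Against the non-responder strains the differences were 1.37 points for cluster 25, -15.8 points for cluster 26, 0.70 for the IFN-γ signature, 2.21 for the Cxcl9 to Spp1 log2 ratio and 17.3 points for the IFN-γ-high macrophage share. The last of these passed the adjustment over its family of tests, and the others did not.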

How the results depend on the processing

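Counts of called genes depended on the model and on single pools, and the causes were not tested. In macrophages 51 genes became 1 with no replicate block, 262 with DESeq2, 886 with every gene of at least 1 count, 0 with all tumors in the fit (1309 at an unadjusted p under 0.05) and 7 to 297 with a pool left out. Without cluster 5, an alternative added after seeing the data, 44 genes passed. In T/NK cells 24 genes became 1 with no replicate block, 11 with DESeq2, 104 with every gene of at least 1 count, 3 with all tumors in the fit, 12 without cluster 12 (added after seeing the data) and 6 to 51 with a pool left out. Over the 12 single clusters 337 calls became 7 with no replicate block and 204 with DESeq2. In cluster 2 the 106 genes became 1 with no replicate block and 7 to 101 with a pool left out, in cluster 5 the 144 became 3 with no replicate block, 49 with DESeq2 and 42 to 152 with a pool left out, and in cluster 26 the 21 became 1 with no replicate block, 38 with DESeq2 and 4 to 40 with a pool left out. The pools left out from single clusters were added after seeing the data.

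Against the responder strains DESeq2 called 17 macrophage genes where edgeR called 0. For the cluster shares, edgeR on cell counts with the replicate block passed 2 of 27 where the permutation test passed 0. The T/NK share difference turned to -0.785 without pool 2 and -1.69 without pool 4 (range -1.69 to 3.84 points), and the macrophage share difference to 2.08 without pool 4 (range -3.30 to 2.08). The mean difference of the IFN-γ signature stayed at 0.41 to 0.63 and that of the IFN-γ-high share at 11.1 to 19.5 points with a pool left out. The named genes, 21 in macrophages and 18 in T/NK cells, kept their direction under every alternative tried. They were picked for moving the same way in all pools, so leaving a pool out could hardly reverse them. Their kept direction is therefore no check of these genes. Of the named genes reported, those of macrophages passed in 4 to 9 of 10 alternatives and those of T/NK cells in 2 to 8. With 4 tumors an arm, and 3 in tests without a pool, where no permutation p can go below 0.1, small differences were not detectable, and clusters under 20 cells a tumor were not tested for genes.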

Other observations

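Fkbp5 and Tsc22d3, which glucocorticoids are known to induce, were lower with aPD1 in several clusters. They were chosen after their values were seen, so the values are a description. Fkbp5, a co-chaperone of steroid receptors, passed in cluster 2 (-1.27 ± 0.26, edgeR adjusted p = 0.0404), in cluster 5 (-1.46 ± 0.27, edgeR adjusted p = 0.00327) and in cluster 27 (-2.05 ± 0.41, edgeR adjusted p = 0.0470), where 0 genes passed without the block (323 at an unadjusted p under 0.05). Over all macrophages it was at 81.5, 51.3, 51.1 and 158 CPM in the isotype tumors and 41.5, 21.4, 34.9 and 25.3 CPM in the aPD1 tumors and did not pass (-1.30 ± 0.30, edgeR adjusted p = 0.102). It was lower with aPD1 in each pool, and the isotype tumor of pool 12 held the highest level.

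Tsc22d3, the glucocorticoid-induced leucine zipper, passed in cluster 2 (-0.83 ± 0.13, edgeR adjusted p = 0.00977), in T/NK cells (-1.10 ± 0.20, edgeR adjusted p = 0.0149), in the CD8 cluster 3 (-1.08 ± 0.25, edgeR adjusted p = 0.0271) and in the regulatory T cell cluster 8 (-1.69 ± 0.31, edgeR adjusted p = 0.0306). In T/NK cells it was at 287, 198, 92.5 and 186 CPM in the isotype tumors and 107, 91.2, 92.7 and 68.9 CPM in the aPD1 tumors, and pool 4 showed almost no difference. The metallothionein Mt1 passed in cluster 21 (-1.29 ± 0.18, edgeR adjusted p = 0.00337), and in T/NK cells it had the other sign without passing (0.80 ± 0.23, edgeR adjusted p = 0.226). The Tsc22d3 calls of clusters 3 and 8 were lost with DESeq2 and without the block. Dusp1 fell in T/NK cells (-0.75 ± 0.13, edgeR adjusted p = 0.0141), lower in 4 of 4 pools, and was at 0.09 in macrophages without passing. Per1 and Sgk1 were at 0.04 and 0.23 in macrophages and Mt2 at 0.62 in T/NK cells, none passing, and Per1 and Sgk1 did not pass in any cell group tested.

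In macrophages of the other strains the log2 fold change of Fkbp5 was 0.01 in CC002, -0.75 in CC075, -0.03 in CC036, 0.60 in CC079 and 0.19 in CC080, against -1.34 in CC001 in the same fit of all tumors. The differences between strains in this gene did not pass the adjustment over all genes.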
